A study of Mus musculus with 12 samples.

Results

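Major urinary proteins and a small group of metabolic enzymes are liver products whose transcription in mice follows the pulses of growth hormone. Of these, 7 genes were chosen by symbol from the 22537 genes of a liver count table: Mup3, Mup20 and Mup21, which encode major urinary proteins, the fatty acid elongase gene Elovl3, the steroid dehydrogenase gene Hsd3b5, and the fatty acid hydroxylase genes Cyp4a12a and Cyp4a12b. All 7 were in the table, and 4 of them (Mup3, Mup20, Mup21 and Elovl3) passed the filter on low counts and could be tested.

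The study sequenced polyadenylated liver RNA from female C57BL/6 mice aged 6 months that had all eaten a high-fat diet over 13 weeks. It asked what changes in the liver when AHR or ARNT is lost. AHR, the aryl hydrocarbon receptor, is a transcription factor switched on by small ligands, and ARNT is the protein it pairs with to bind DNA. The 4 genotypes, with 3 libraries of each, were the controls AHR Flox and ARNT Flox and the knockouts AHR KO and ARNT KO. Flox stands for the line carrying the floxed gene and served as the control of the knockout of the same gene. The recombinase, the deleted part of each gene and any treatment given to induce deletion were not given in the sources used here, so it is also unknown whether the Flox mice carried a recombinase.

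In males the pituitary releases growth hormone in separated pulses, whereas in females its level in blood is more continuous. Each pulse activates the transcription factor STAT5B in hepatocytes, and genes such as the Mup genes, Elovl3, Hsd3b5, Cyp4a12a and Cyp4a12b are known for higher expression in male than in female liver. Major urinary proteins are lipocalins, small secreted carriers that bind volatile pheromones and leave the body in urine. All 12 libraries came from females, so the levels described here belong to the sex in which these genes are known to be low.

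Library totals ran from 23585909 to 33255004 counts. Xist, the transcript of the inactive X chromosome, lay between 865 and 1188 CPM (counts per 1000000 counts of a library, with library sizes scaled by edgeR's TMM factors) in every library. The Y-linked genes Ddx3y, Uty, Kdm5d and Eif2s3y had 0 counts in all 12. Arnt averaged 22.7 ± 3.30 CPM (SD, n = 3) in ARNT KO and 50.2 ± 2.33 CPM (n = 3) in ARNT Flox, a log2 change of -1.15 ± 0.12 (SE; adjusted p = 0.00601, edgeR quasi-likelihood test). Ahr averaged 86.5 ± 7.48 CPM (n = 3) in the libraries labelled AHR KO and 68.4 ± 12.9 CPM (n = 3) in AHR Flox. A whole-gene count does not check a deletion whose position is unknown, so every direction below that involves AHR KO rests on the label. ARNT KO replicate 3 stood apart from the other 11 libraries: on the first principal component of all tested genes, which held 43% of the variance, it scored 65.3 and the others between -30.9 and 30.3. Results that rest on it are therefore given with and without it.

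The 3 urinary protein genes lie within the Mup cluster of chromosome 4 (GENCODE M21, GRCm38, the assembly also called mm10), all protein-coding and all on the minus strand. Mup20 spans chr4:62050234-62054158, Mup3 spans chr4:62083476-62087342 and Mup21 spans chr4:62147932-62150863. Mup3 and Mup21 are close copies, and their promoters are printed because the counts of the pair nevertheless differed widely: over the 12 libraries Mup3 averaged 1154 CPM per kilobase of exon and Mup21 averaged 13.6 CPM per kilobase. The sequences are the 250 bases before the annotated transcript start, from RefSeq (GRCm38.p6), at chr4:62087318-62087567 for Mup3 and chr4:62150842-62151091 for Mup21, each written 5′ to 3′ on the minus strand. RefSeq places both starts inside the GENCODE gene spans given above, so the last 25 bases of the Mup3 window and the last 22 of the Mup21 window belong to the gene by GENCODE. Capitals mark ATCAAT, a core sequence bound by ONECUT1 (HNF6), a hepatocyte factor known to act with growth hormone signalling, and TATATAA, a sequence that can position transcription starts.
Mup3: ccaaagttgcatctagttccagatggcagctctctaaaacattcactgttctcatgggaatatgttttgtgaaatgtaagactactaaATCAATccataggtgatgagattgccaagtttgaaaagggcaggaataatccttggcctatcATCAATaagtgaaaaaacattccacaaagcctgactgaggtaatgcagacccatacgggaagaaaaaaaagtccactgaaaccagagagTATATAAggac
Mup21: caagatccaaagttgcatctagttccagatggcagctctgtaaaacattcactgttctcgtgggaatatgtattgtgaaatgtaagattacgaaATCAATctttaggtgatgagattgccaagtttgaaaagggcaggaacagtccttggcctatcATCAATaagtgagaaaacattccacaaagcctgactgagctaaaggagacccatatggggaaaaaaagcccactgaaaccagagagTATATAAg
Aligned end to end, the pair shared 228 identical bases over 256 columns, an identity of 89.1%. The other Mup promoters in the table matched Mup3 less closely, from 78.7% for Mup14 down to 43.2% for Mup7. The window of Hsd3b5, which is not a Mup gene, matched Mup3 at 46.2% by the same alignment, so the lowest values show no likeness. ATCAAT occurred at 2 places in each printed window. They started 162 and 100 bases before the start in Mup3, and 156 and 94 bases before it in Mup21. TATATAA occurred once in each, starting 11 bases before the RefSeq start in Mup3 and 8 bases before it in Mup21, within the stretch that GENCODE counts as gene. Both strands were searched and the searched sequences do not overlap one another in these windows. Among 32851 promoter windows of the same length, 6.72% held ATCAAT and 3.04% held TATATAA. The letters TTCNNNGAA (the STAT5 motif), GCGTG (the AHR-ARNT motif) and ACGTG (the motif of hypoxia-inducible factors with ARNT) were in neither window, and were in 7.02%, 28.2% and 16.6% of all windows. RefSeq promoters were matched for Mup3, Mup21 and Hsd3b5, which makes 3 of the 7 genes. The Hsd3b5 window is not described further, because RefSeq places its start outside the GENCODE span given below.

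Mup3 was by far the most abundant of the 7 genes. It received 436180 counts over the 12 libraries and ranked 103 of 22537 genes by mean CPM, in female livers. Mup20, whose product is the urinary pheromone darcin, received 20978 counts, and Mup21 received 3348. Per kilobase of exon, mean levels over the 12 libraries were 61.3 CPM for Mup20, 0.780 CPM for Elovl3, 0.0482 CPM for Hsd3b5, 0.0198 CPM for Cyp4a12a and 0.0020 CPM for Cyp4a12b. The order of the 7 genes per kilobase was thus Mup3, Mup20, Mup21, Elovl3, Hsd3b5, Cyp4a12a and Cyp4a12b. The last 3 were close to the counting floor and their order is not resolved by these counts.

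Mup3 separated the groups more cleanly than any other member. Its levels were 1843, 2095 and 2311 CPM in AHR Flox, replicates 1 to 3. The libraries labelled AHR KO had 1099, 1036 and 1120.2 CPM, and those of ARNT Flox had 798, 736 and 863 CPM. In ARNT KO, replicates 1 and 2 had 1305 and 1348 CPM and replicate 3 had 231 CPM. The libraries of AHR Flox, AHR KO and ARNT Flox occupied 3 ranges that did not overlap, with AHR Flox highest and ARNT Flox lowest. Replicates 1 and 2 of ARNT KO lay between AHR KO and AHR Flox, while replicate 3 was the lowest of all 12 libraries. The mean of AHR Flox was 2083 ± 234 CPM and that of AHR KO 1085 ± 43.6 CPM (SD, n = 3 each). The mean of ARNT Flox was 799 ± 64.0 CPM and that of ARNT KO 961 ± 632 CPM (SD, n = 3 each). Without replicate 3, the mean of ARNT KO was 1326 ± 30.0 CPM (n = 2).

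**Figure D1:**
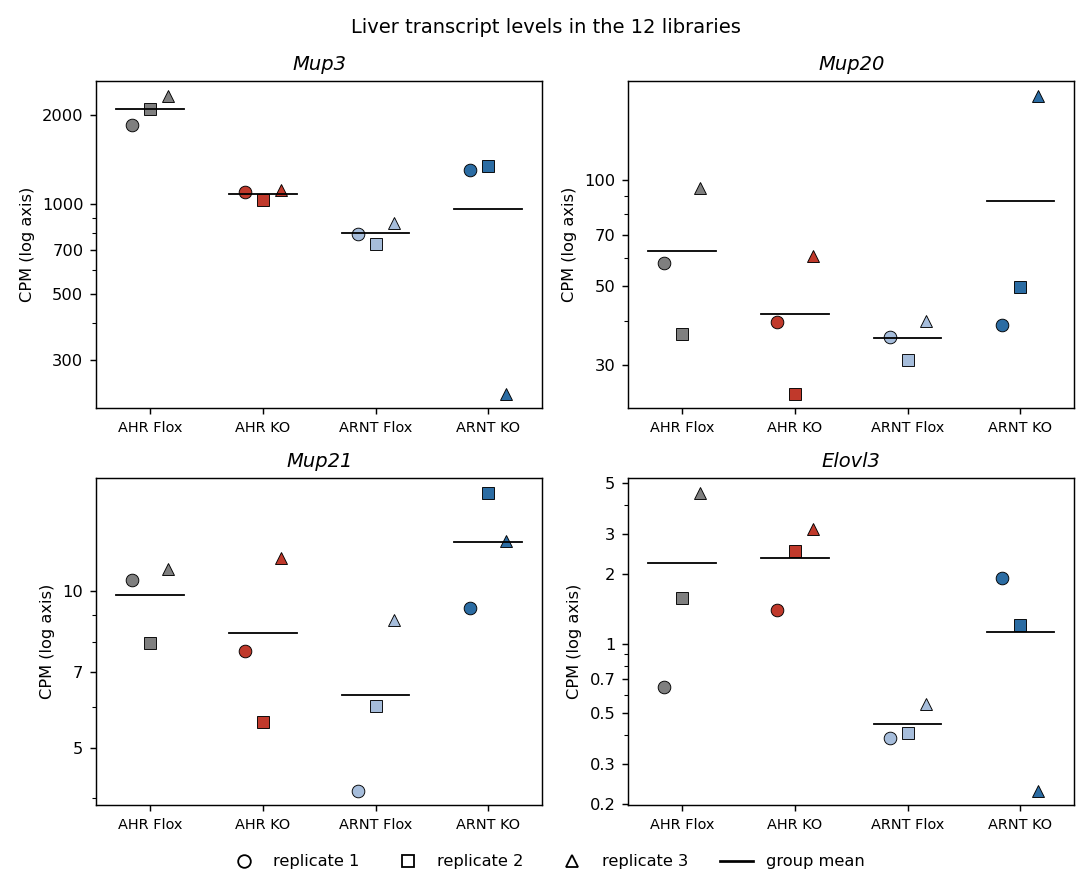
Levels of Mup3, Mup20, Mup21 and Elovl3 (CPM, log axis) in the 3 libraries of each of the 4 groups, each point a library with its shape giving the replicate, and each line a group mean. In ARNT KO replicate 3 (triangle), Mup3 and Elovl3 are at their lowest of the 12 libraries (231 and 0.230 CPM) and Mup20 is at its highest (172 CPM).

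In the comparison of AHR KO with AHR Flox, Mup3 was 1.92-fold lower in the libraries labelled AHR KO by group means, and all 3 of them lay below all 3 AHR Flox libraries. The fitted log2 change was -0.94 ± 0.46 (SE) and did not pass the test (adjusted p = 0.445, edgeR quasi-likelihood test with Benjamini-Hochberg adjustment over 13968 genes). Without ARNT KO replicate 3, the log2 change was -0.95 ± 0.10 and Mup3 passed (adjusted p = 0.00256). That library is in neither group of the comparison and enters through the spread that all 4 groups share. Fitted on the 6 libraries of the comparison alone, the log2 change was -0.95 ± 0.12 and also passed (adjusted p = 0.0476), where 0.119% of genes did. Alb, which encodes albumin, lay between 5491 and 7088 CPM in the libraries labelled AHR KO and between 78433 and 89275 CPM in AHR Flox. The other 9 hepatocyte marker genes summed to 42233 to 47333 CPM in AHR KO and 37016 to 41853 CPM in AHR Flox. Their fitted changes were positive for 7 and negative for 2, Cps1 (-0.23) and Apob (-0.05), and the part of these genes in the Mup3 value was not tested.

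Mup20, Mup21 and Elovl3 overlapped between AHR KO and AHR Flox. Mup20 measured 58.1, 36.6 and 94.6 CPM in AHR Flox and 39.7, 24.9 and 60.9 CPM in AHR KO, a log2 change of -0.59 ± 0.53 (adjusted p = 0.720). Mup21 measured 10.5, 7.96 and 11.02 CPM in AHR Flox and 7.68, 5.60 and 11.6 CPM in AHR KO, a log2 change of -0.24 ± 0.31 (adjusted p = 0.821). Elovl3 (chr19:46131897-46135694, plus strand), which lengthens saturated and monounsaturated fatty acids, spread widely within both groups. It measured 0.647, 1.57 and 4.51 CPM in AHR Flox and 1.40, 2.52 and 3.14 CPM in AHR KO, a log2 change of 0.09 ± 0.67 (adjusted p = 0.979). Its sign turned when single libraries were left out.

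Of the 4 tested members, 0 passed in this comparison with edgeR, 0 had an unadjusted p under 0.05 and DESeq2 called 0. Over all genes, 0.0788% passed with edgeR, 11.9% had an unadjusted p under 0.05 and 2.57% passed with DESeq2. Without ARNT KO replicate 3, 1 member (Mup3) passed, where 0.966% of genes did. Mup3 was the 1 member whose groups did not overlap, where 9.46% of all genes lay wholly lower in AHR KO. The median log2 change of the 4 was -0.42, against 0.01 over all genes tested.

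In the comparison of ARNT KO with ARNT Flox, the fitted changes of all 4 tested members were positive, but only Mup21 separated the groups. Mup21 measured 4.14, 6.01 and 8.80 CPM in ARNT Flox and 9.28, 15.4 and 12.5 CPM in ARNT KO, a 1.96-fold difference of the means. The log2 change was 0.98 ± 0.31 with an unadjusted p of 0.00858, which did not pass after adjustment (adjusted p = 0.637). Without ARNT KO replicate 3 it was 0.99 ± 0.34 (adjusted p = 0.196), so that library had little part in the value. Replicate 3 was 1.01 times the mean of replicates 1 and 2 for this gene.

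Mup20 measured 36.1, 31.0 and 40.0 CPM in ARNT Flox and 38.9, 49.9 and 172 CPM in ARNT KO. Replicate 1 of ARNT KO lay within the range of ARNT Flox and replicate 2 above it, and replicate 3 was 3.88 times their mean. The log2 change was 1.29 ± 0.53 with an unadjusted p of 0.0336 (adjusted p = 0.793), and it was 0.32 ± 0.38 without replicate 3 (adjusted p = 0.724). Most of the fitted Mup20 difference in this comparison was therefore due to 1 library.

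For Mup3 the same library pulled the other way. The log2 change of Mup3 was 0.27 ± 0.45 in the fit of 12 libraries (adjusted p = 0.999). Replicate 3 was 5.73-fold lower than the mean of replicates 1 and 2, which both lay above all 3 ARNT Flox libraries. Without replicate 3, Mup3 was 1.66-fold higher in ARNT KO by group means, with a log2 change of 0.73 ± 0.11 that passed the test (adjusted p = 0.0102).

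Elovl3 measured 0.387, 0.407 and 0.545 CPM in ARNT Flox, which is 13 counts in each library. It measured 1.92, 1.21 and 0.230 CPM in ARNT KO, from 62, 38 and 8 counts. Replicates 1 and 2 of ARNT KO were above every ARNT Flox library and replicate 3 was below every one, 6.82-fold under the mean of replicates 1 and 2. The log2 change was 1.33 ± 0.80 with replicate 3 (adjusted p = 0.910) and 1.83 ± 0.71 without it (adjusted p = 0.237), and neither passed.

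Of the 4 tested members, 0 passed in this comparison with edgeR, 2 (Mup20 and Mup21) had an unadjusted p under 0.05 and DESeq2 called 0. Over all genes, 0.0573% passed with edgeR, 5.88% had an unadjusted p under 0.05 and 0.401% passed with DESeq2. The 1 member with groups that did not overlap, Mup21, stands beside 5.94% of all genes that lay wholly higher in ARNT KO. The median log2 change of the 4 was 1.14, against 0.01 over all genes tested. Without ARNT KO replicate 3, 1 member (Mup3) passed, where 1.37% of genes did.

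The difference between the ARNT and the AHR effect, tested as an interaction, was positive for all 4 tested members and passed for 0 of them. Over all genes, 0.043% passed with edgeR and 1.06% with DESeq2. Mup21 differed by 1.23 ± 0.44 on the log2 scale (adjusted p = 0.406), Mup20 by 1.88 ± 0.75 (adjusted p = 0.463), Mup3 by 1.21 ± 0.64 (adjusted p = 0.614) and Elovl3 by 1.24 ± 1.04 (adjusted p = 0.805). Unadjusted p was under 0.05 for 2 of the 4, Mup20 and Mup21, where 9.51% of all genes had such a p, and DESeq2 called 0. Without ARNT KO replicate 3, Mup3 passed with a difference of 1.68 ± 0.15 (adjusted p = 0.00106), where 1.38% of genes passed: it was lower in the libraries labelled AHR KO than in AHR Flox and higher in ARNT KO than in ARNT Flox. In the same fit the control groups themselves differed by -1.38 ± 0.10 from AHR Flox to ARNT Flox, and their part in the Mup3 difference was not tested.

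**Figure D2:**
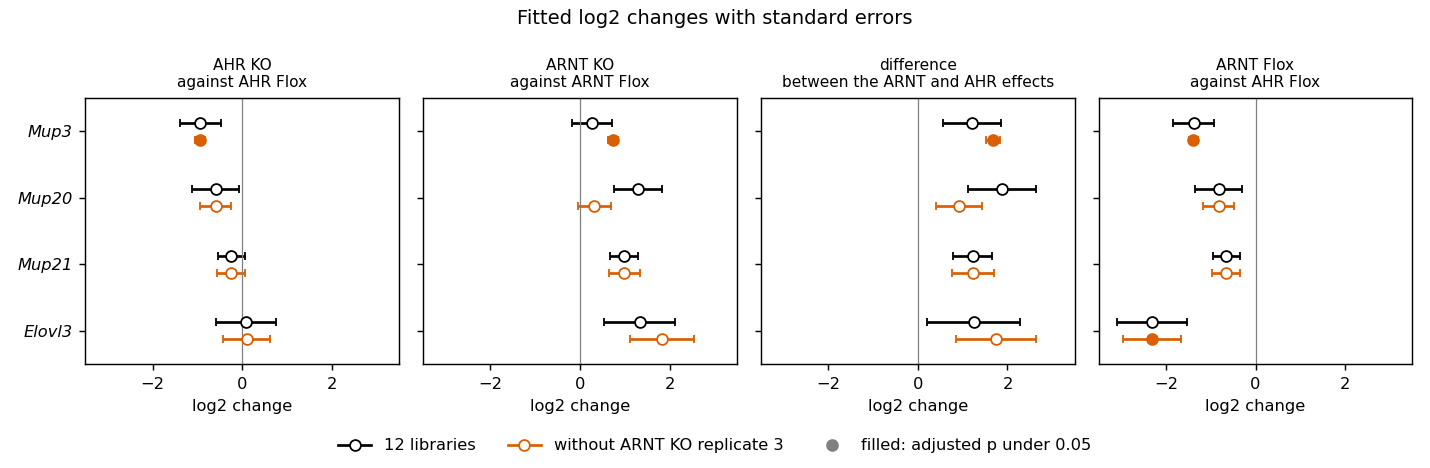
Fitted log2 changes of the 4 tested members in the 4 contrasts (x axis, log2 change, points with standard errors) from all 12 libraries and without ARNT KO replicate 3, with filled points marking an adjusted p under 0.05. No point is filled with 12 libraries, and without replicate 3 the points of Mup3 are filled in all 4 contrasts, at -0.95, 0.73, 1.68 and -1.38. Without replicate 3 the point of Elovl3 is also filled for ARNT Flox against AHR Flox, at -2.31.

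The control lines also differed from each other. ARNT Flox was below AHR Flox in the group mean of every tested member, and the 2 groups did not overlap for Mup3 and Elovl3. Both knockout comparisons share these control groups with this one, so the values are not independent of those above. Mup3 was 2.61-fold higher in AHR Flox than in ARNT Flox, with a log2 change of -1.38 ± 0.46 from AHR Flox to ARNT Flox (unadjusted p = 0.0115, adjusted p = 0.166). Elovl3 was 5.03-fold higher in AHR Flox by group means, with a log2 change of -2.32 ± 0.78 (unadjusted p = 0.0123, adjusted p = 0.168). Mup20 had a fitted log2 change of -0.82 ± 0.53 (adjusted p = 0.401) and Mup21 one of -0.65 ± 0.31 (adjusted p = 0.273), neither past the threshold. By fitted values, Mup3 differed more between the 2 control lines than between either knockout and its own control, an order that was not tested.

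Of the 4 tested members, edgeR passed 0 in this comparison of control lines, where 0.329% of all genes passed (46 genes, or 23 genes, which is 0.165%, with the replicate number as a block, since same-numbered Flox libraries deviated together). An unadjusted p under 0.05 was reached by 2 members, Mup3 and Elovl3, and by 19.9% of all genes. The 2 members lying wholly lower in ARNT Flox stand beside 17.7% of all genes that did. DESeq2 called 1 member, Elovl3, with a log2 change of -2.34 (adjusted p = 0.0396), where it called 4.1% of genes. Without ARNT KO replicate 3, Mup3 passed at -1.38 ± 0.10 (adjusted p = 4.2e-05) and Elovl3 at -2.31 ± 0.65 (adjusted p = 0.0442), where 10.9% of genes passed. On the 6 libraries of this comparison alone, Mup3 passed at -1.38 ± 0.11 (adjusted p = 0.000489), where 11.9% of genes did. Line and floxed gene cannot be told apart in this comparison.

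Of the markers of hepatocytes and other liver cell types, 0 passed between the control lines with 12 libraries. Leaving out ARNT KO replicate 3, 4 Kupffer and macrophage markers and 3 lymphocyte markers passed as higher in ARNT Flox, and 1 hepatocyte marker, Serpina1c, passed as lower. In that fit, 10.9% of all genes passed between the control lines. From AHR Flox to ARNT Flox, fitted changes were positive for 8 of 8 lymphocyte markers (median log2 change 0.69), 5 of 6 Kupffer and macrophage markers (0.45), 6 of 6 stellate cell markers (0.40), 6 of 6 endothelial markers (0.26) and 5 of 5 tested cholangiocyte markers (0.11). They were negative for 8 of 10 hepatocyte markers (-0.18). Summed levels of Kupffer and macrophage markers were 519 to 536 CPM in ARNT Flox and 336 to 495 CPM in AHR Flox, and those of hepatocyte markers were 102599 to 124625 CPM and 120285 to 128943 CPM. The part of these shifts in the lower Mup3 and Elovl3 levels of ARNT Flox was not tested.

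Hsd3b5, Cyp4a12a and Cyp4a12b, genes known as strongly male-biased, were close to absent from these female livers. Hsd3b5, a member of the 3-beta-hydroxysteroid dehydrogenase family that acts as a ketosteroid reductase (chr3:98618634-98630252, minus strand), received 7, 1 and 3 counts in AHR Flox against 2, 2 and 3 in AHR KO. The ARNT Flox libraries had 2, 1 and 0 counts and the ARNT KO libraries 4, 1 and 1. Those 27 counts were spread over 11 of the 12 libraries. Other genes of the family were abundant: Hsd3b3 received 61517 counts and Hsd3b2 received 11613. Of the 50-base words of Hsd3b5, 78.8% were found in no other gene, and the genes sharing most of them were Hsd3b4 (18.2%), Gm10681 (18.2%) and Gm4450 (13.7%).

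Cyp4a12a (chr4:115299046-115332815, plus strand), a hydroxylase that converts arachidonic acid to 20-HETE, had 18 counts in all, of which 12 were in ARNT KO replicate 3. The remaining 6 were 1 in AHR Flox replicate 3, 1 in AHR KO replicate 3, 3 in ARNT Flox replicate 3 and 1 in ARNT KO replicate 1. Cyp4a12b (chr4:115411624-115439034, plus strand), its neighbouring copy, had 2 counts, both in ARNT KO replicate 3. The copies share 48.9% of the 50-base words of Cyp4a12a, so the counts cannot be assigned to one of them with certainty. A count of 0 allows up to 3 counts, which is 0.0861 to 0.126 CPM in these libraries (counting error only), and no fold is given for these genes. Cyp4a14, a family member that is not a member of the list of 7, was abundant at 142 to 2138 CPM.

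The reads of genes named Mup came almost wholly from Mup3 in 11 of 12 libraries. Gm2083, which RefSeq lists as an older name of Mup13, is not among these genes and is left out of the sums and shares below. It received 15196 counts over the 12 libraries. The table held 20 genes named Mup, and their summed level was 2158 ± 254 CPM in AHR Flox against 1136 ± 63.5 CPM in AHR KO (SD, n = 3 each). It was 842 ± 70.1 CPM in ARNT Flox against 1061 ± 559 CPM in ARNT KO (SD, n = 3 each). Mup3 made up 93.9% to 97.8% of these reads in 11 libraries and 55.6% (95% Wilson interval 54.7 to 56.4%) in ARNT KO replicate 3. Mup20 made up 1.71% to 5.10% in the 11 and 41.4% (40.6 to 42.2%) in replicate 3. For Mup21 the shares were 0.372% to 1.09% in the 11 and 3.00% (2.73 to 3.29%) in replicate 3. The summed level in replicate 3 was 416 CPM, the lowest of the 12 libraries, while the level of Mup20 was at its highest there.

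**Figure D3:**
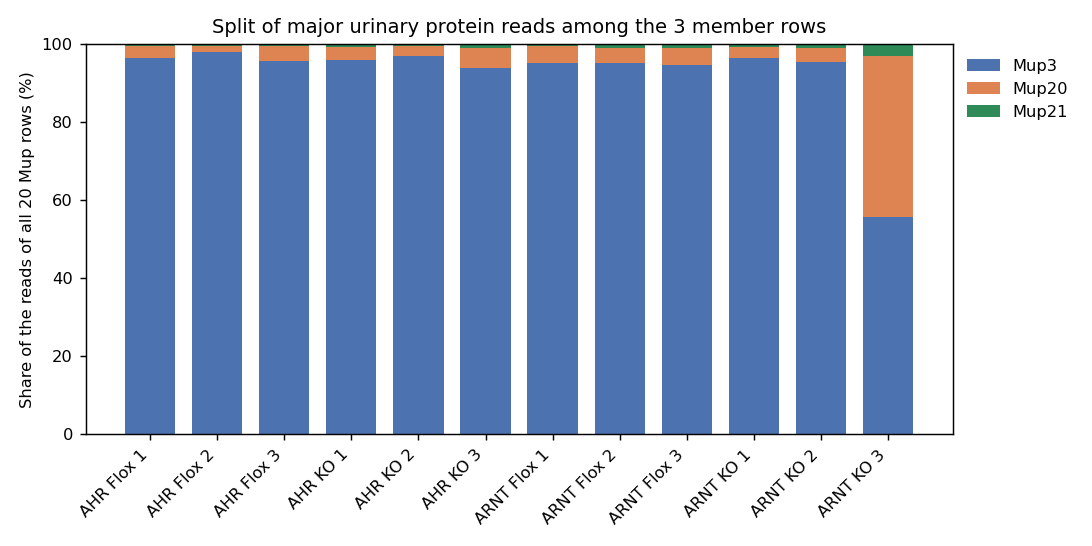
Share (%) of the reads of all 20 genes named Mup that fell on Mup3, Mup20 and Mup21, one stacked bar for each of the 12 libraries. The other 17 genes are not drawn, and Gm2083 is not among the 20. Mup3 fills 93.9% to 97.8% of the bar in 11 libraries and 55.6% in ARNT KO replicate 3, where Mup20 takes 41.4%.

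The other 17 Mup genes together had 11 to 70 counts in a library. The largest total was that of Mup12, with 71 counts over the 12 libraries, and Mup11, Mup16, Mup17 and Mup19 had 0 counts in all. Most of these genes share much of their sequence with other genes: Mup15 and Mup19 had no 50-base word of their own, and Mup12 had 14.6%. Whether this sharing or low expression lies behind their low counts was not tested. How the authors treated reads that match several genes is not given in the sources used here. Mup4, Mup5 and Mup6 are exceptions, with 87.6%, 82.9% and 96.0% of their 50-base words found in no other gene, and they had 15, 13 and 3 counts. For the 3 members the share was 86.7% for Mup3, 80.7% for Mup21 and 49.5% for Mup20. Mup20 shared 48.0% of its words with the pseudogene Mup-ps19, and Mup21 shared 17.8% of its words with Mup3.

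**Figure D4:**
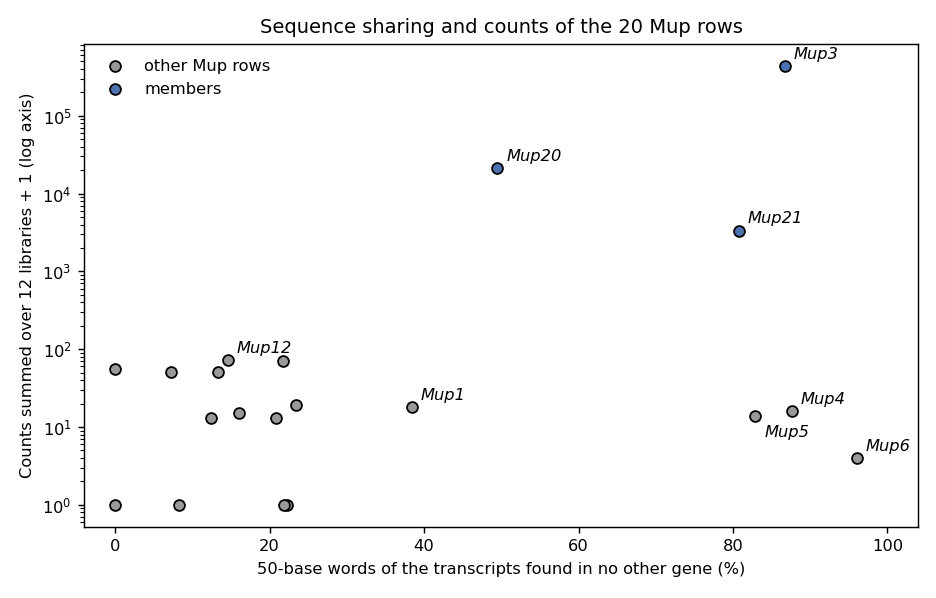
For each of the 20 Mup genes, the percentage of its transcripts' 50-base words found in no other gene (x axis) against its counts summed over 12 libraries plus 1 (y axis, log axis). Mup3 (86.7%, 436180 counts) and Mup21 (80.7%, 3348 counts) sit among Mup4, Mup5 and Mup6 in uniqueness and far above them in counts.

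Mup15 and Mup12 were the 2 of these 17 genes that passed the filter on low counts. Mup15 had a log2 change of -2.85 ± 0.87 in AHR KO (adjusted p = 0.205) and -2.45 ± 0.77 in ARNT KO (adjusted p = 0.634), from 55 counts over all libraries, and did not pass. Symbols within the Mup cluster have been reassigned between annotations: of the 20 Mup symbols in the table, 16 are also listed by RefSeq as an older name of another Mup gene, Mup3 among them. Mup20 and Mup21 are not among those 16. Positions, levels per kilobase and sequences given here assume that the table uses the current symbols, which was not checked. The table also holds Gm2083, which RefSeq lists as an older name of Mup13 and which GENCODE M21 lacks. Its symbols therefore do not all match the annotation used here.

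Of 12255 genes with a mean of at least 1 CPM, members and genes named Mup left out, Gm2083 had the pattern most like that of Mup3. Its Pearson r with Mup3 was 0.96 over the 12 libraries and 0.89 over the 11 without ARNT KO replicate 3, on log2 CPM. RefSeq lists Gm2083 as an older name of Mup13, although the table has a separate Mup13 entry with 50 counts, and it can therefore be another urinary protein transcript. Gm2083 is not in GENCODE M21, so its sequence was not compared with that of Mup3. The part of shared reads in the likeness was not tested. Gm2083 measured 70.3, 73.5 and 142 CPM in AHR Flox against 43.2, 39.7 and 45.4 CPM in AHR KO. The ARNT Flox libraries had 17.7, 10.8 and 20.9 CPM and the ARNT KO libraries 44.5, 21.3 and 0.517 CPM. As for Mup3, all AHR KO libraries lay between those of AHR Flox and ARNT Flox, and in ARNT KO replicate 3 it was 63.6-fold below the mean of replicates 1 and 2. Its log2 change between the control lines was -2.53 ± 0.86 (adjusted p = 0.170) and -2.54 ± 0.34 without that library (adjusted p = 0.00188).

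Next to Gm2083, the genes most like Mup3 were Chuk, which encodes a kinase of the NF-kappa-B pathway (r = 0.96, and 0.88 without replicate 3), and Slco2b1, an organic anion transporter gene (0.95 and 0.89). For Mup20 they were Limch1 (0.93 and 0.86), the RNA exonuclease gene Rexo2 (0.92 and 0.88) and Habp4 (0.91 and 0.88). Mup21 was most like Actr1a, which encodes a subunit of dynactin (0.89 and 0.90), 2310047B19Rik (0.85 and 0.84) and Wdr35 (0.85 and 0.85). The genes most like Elovl3 were D19Ertd386e (0.95 and 0.94), Cyp2d40 (0.93 and 0.91) and Gdi2 (0.92 and 0.90). Each r was the highest of many searched over the same 12 libraries, and the points share group and library. They are descriptions only.

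ARNT KO replicate 3 differed from the other libraries in genes that mark cell types as well. In replicates 1 to 3 of ARNT KO, the 10 hepatocyte markers summed to 94063, 95679 and 37618 CPM, and Alb alone measured 51926, 53685 and 5740 CPM. Without Alb, the other 9 hepatocyte markers summed to 31878 CPM in replicate 3 and 32895 to 47333 CPM elsewhere. The 6 cholangiocyte markers summed to 46.0, 80.4 and 310 CPM in ARNT KO, against 51.8 to 112 CPM in the other 3 groups. The Kupffer and macrophage markers summed to 716 CPM in replicate 3 and 336 to 536 CPM in the other libraries, and the proliferation markers to 56.0 CPM and 6.05 to 18.9 CPM. Lymphocyte markers stayed within 5.47 to 12.2 CPM and endothelial markers within 187 to 285 CPM in all 12. Stellate cell markers summed to 547 CPM in replicate 3 and 223 to 460 CPM elsewhere. No marker gene was at 0 throughout a group. The part of these shifts in the Mup3, Mup20 and Elovl3 values of replicate 3 was not tested, and in whole liver RNA fewer cells of a type and less RNA per cell cannot be told apart.

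Beyond the 7 genes, other male-biased liver genes gave values of both signs. Of 20 listed, 13 were tested and 0 passed with edgeR in AHR KO, in ARNT KO, in the difference between the effects and between the control lines. Their numbers with an unadjusted p under 0.05 were 4, 3, 4 and 3, and DESeq2 called 3, 1, 2 and 3. Over all genes, 11.9%, 5.88%, 9.51% and 19.9% had such a p, and DESeq2 called 2.57%, 0.401%, 1.06% and 4.1%. Their median log2 changes were -0.10, -0.04, 0.00 and -0.24, against values between 0.00 and 0.01 over all genes. When ARNT KO replicate 3 was left out, the fitted change was negative for 10 of the 13 in ARNT KO (median -0.44) and for 9 of the 13 in the difference between the effects (median -0.42). Between the control lines without that library, 3 of the 13 passed as lower in ARNT Flox and 2 as higher, where 10.9% of all genes passed. Cyp2d9, a male-biased P450 gene and 1 of those 3, was lower in ARNT Flox than in AHR Flox, as Mup3 was by its levels. It measured 17.3, 17.6 and 33.3 CPM in AHR Flox against 74.1, 27.3 and 38.9 CPM in AHR KO. The ARNT Flox libraries had 3.72, 5.35 and 5.03 CPM and the ARNT KO libraries 46.9, 63.1 and 16.2 CPM. All ARNT KO libraries lay above all ARNT Flox libraries, with a log2 change of 3.16 ± 0.52 (adjusted p = 0.115) and 3.56 ± 0.41 without replicate 3 (adjusted p = 0.00224). Without that library, Gstp1 passed as lower in ARNT KO, a comparison in which 1.37% of all genes then passed. Cyp2u1 was lower in AHR KO (-1.10 ± 0.28, adjusted p = 0.144) and higher in ARNT KO (1.01 ± 0.28, adjusted p = 0.562), and its difference of 2.11 ± 0.40 had an adjusted p of 0.131, or 0.0211 without replicate 3.

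Among female-biased liver genes, 29 of 31 listed were tested. With edgeR, 0 passed in each of the 4 contrasts. In the order given above, 10, 6, 8 and 6 had an unadjusted p under 0.05, and DESeq2 called 3, 0, 3 and 4. The shares over all genes are those given for the male-biased genes. In AHR KO, 23 of the 29 had a positive and 6 a negative fitted change, with a median log2 change of 0.41 against 0.01 over all genes. Positive and negative changes numbered 12 and 17 in ARNT KO (median -0.09), 9 and 20 in the difference between the effects (-0.16), and 11 and 18 between the control lines (-0.09). The median in ARNT KO was 0.13 when replicate 3 was left out. Cyp2b13, a female-biased P450 gene, measured 572, 724 and 649 CPM in AHR Flox and 1099, 687 and 588 CPM in AHR KO. The ARNT Flox libraries, lowest by group mean, had 152, 242 and 173 CPM and the ARNT KO libraries 707, 711 and 172 CPM. Its log2 change in ARNT KO was 1.49 ± 0.44 (adjusted p = 0.569) and it passed without ARNT KO replicate 3 (1.91 ± 0.25, adjusted p = 0.00452). Between the control lines without that library, 4 of the 29, Cyp2b13 among them, passed as lower in ARNT Flox and 3 as higher, where 10.9% of all genes passed. Sult3a1, a sulfotransferase gene, also passed as higher in ARNT KO without that library.

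Genes of growth hormone signalling were all detected: 22 of 22 were tested. With edgeR, 0 passed in AHR KO, 0 in ARNT KO, 1 in the difference between the effects and 0 between the control lines. Their numbers with an unadjusted p under 0.05 were 4, 2, 4 and 7, and DESeq2 called 1, 1, 2 and 2. The shares over all genes are those given for the male-biased genes, and edgeR passed 0.043% of all genes in the difference between the effects. The gene that passed was Socs2, an inhibitor of the growth hormone receptor that the hormone itself induces. Socs2 measured 34.1, 25.9 and 25.1 CPM in AHR Flox against 94.5, 61.3 and 76.8 CPM in AHR KO. The ARNT Flox libraries had 76.7, 37.1 and 41.4 CPM and the ARNT KO libraries 25.5, 26.4 and 21.9 CPM. It was higher in every library labelled AHR KO than in AHR Flox (log2 change 1.45 ± 0.26, adjusted p = 0.0633) and lower in every ARNT KO library than in ARNT Flox (-1.07 ± 0.26, adjusted p = 0.375). The difference between these effects was -2.52 ± 0.36 (adjusted p = 0.0461), and -2.44 ± 0.38 without ARNT KO replicate 3 (adjusted p = 0.0153). The control lines differed as well: every ARNT Flox library lay above every AHR Flox library, as for 18.1% of all genes. DESeq2 called Socs2 between the control lines, where it called 4.1% of genes. Without ARNT KO replicate 3, edgeR called it there too, where 10.9% of genes passed. The part of the control lines in the Socs2 difference was not tested. Without that library, the group means of Mup3 lay in the opposite directions to Socs2 in both knockout comparisons. Igf1, the hormone's main secreted product of the liver, measured 341 CPM in ARNT KO replicate 3 and 569 to 868 CPM in the other 11 libraries.

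**Figure D5:**
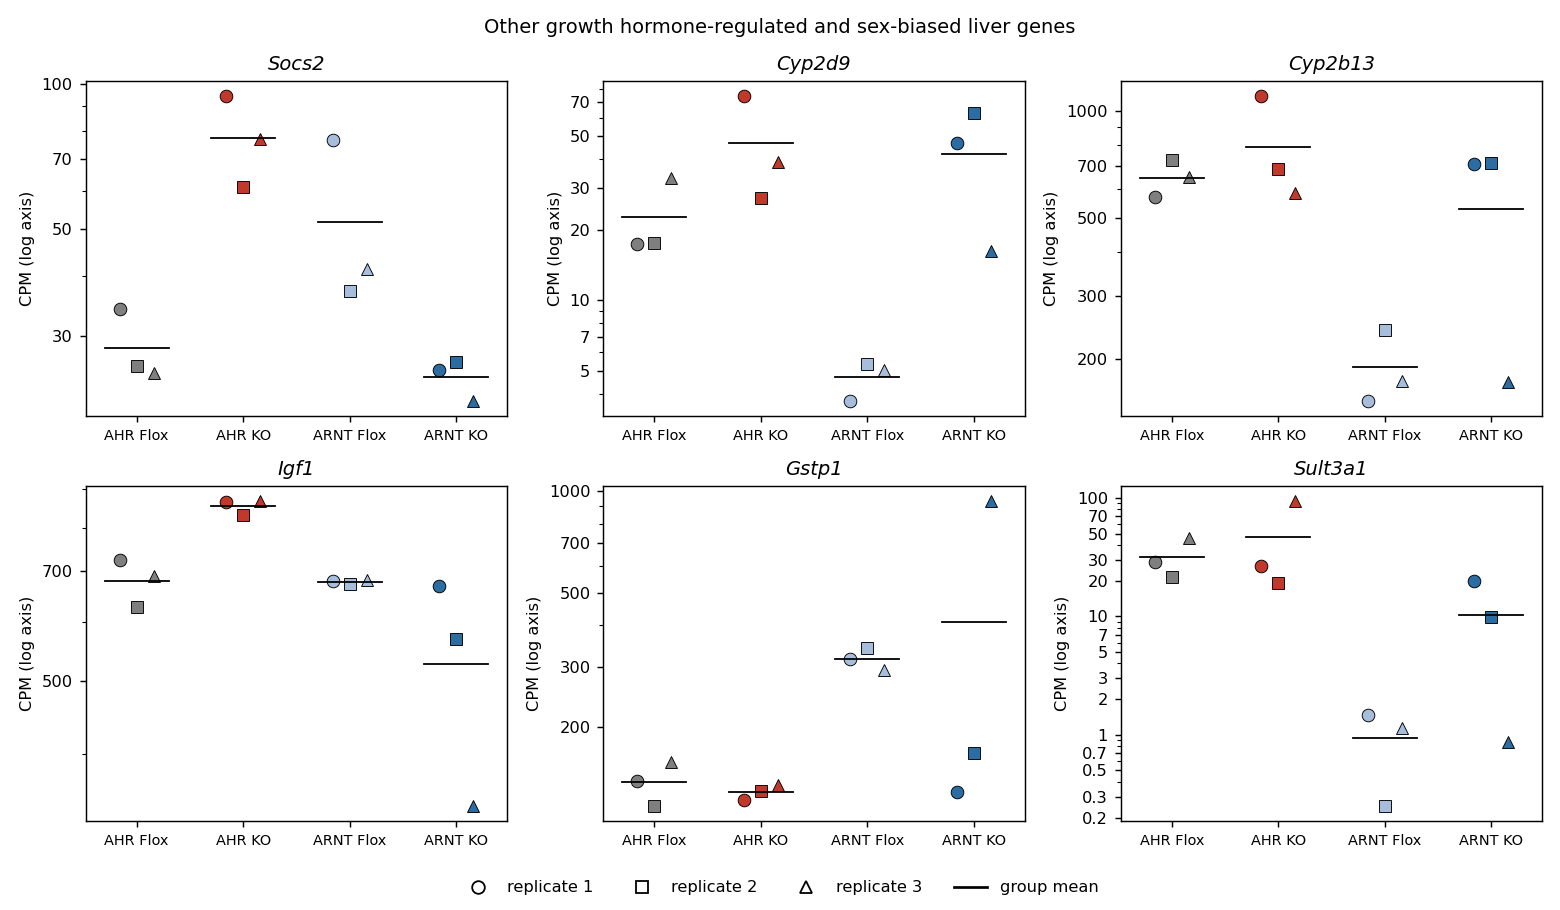
Levels (CPM, log axis) of Socs2, Cyp2d9, Cyp2b13, Igf1, Gstp1 and Sult3a1 in the 3 libraries of each group, with each point a library and each line a group mean. Socs2 is at 61.3 to 94.5 in AHR KO and 21.9 to 26.4 in ARNT KO, and Igf1 is lowest in ARNT KO replicate 3 at 341.

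Among the genes of the members' own families, 0 passed with edgeR in any contrast in the Cyp4a, Hsd3b and Elovl families. In the order of contrasts above, unadjusted p was under 0.05 for 3, 1, 2 and 1 Cyp4a genes, for 2, 0, 1 and 1 Hsd3b genes, and for 0, 0, 0 and 1 Elovl genes, the last being Elovl3 itself. DESeq2 called Cyp4a10 in AHR KO and in the difference between the effects, and Elovl3 between the control lines. The shares over all genes are again those given for the male-biased genes. Elovl7 stood at 16.6 CPM in ARNT KO replicate 3 and at 0.559 and 0.604 CPM in replicates 1 and 2, 28.5-fold above their mean, while Elovl3 was lowest there. Cyp4a14, a fatty acid hydroxylase gene induced by the receptor PPAR-alpha, measured 700.4, 733 and 751 CPM in AHR Flox against 1751, 698 and 2138 CPM in AHR KO. The ARNT Flox libraries had 371, 404 and 323 CPM and the ARNT KO libraries 685, 403 and 142 CPM. Its libraries labelled AHR KO spread on both sides of AHR Flox. All 4 tested Cyp4a genes had a positive fitted change in AHR KO (median 1.13), and 2 of them lay wholly above AHR Flox, as 11.7% of all genes did. Cyp4a10 measured 898, 505 and 1246 CPM in AHR KO against 293, 459 and 406 CPM in AHR Flox (log2 change 1.19 ± 0.33, adjusted p = 0.164). Cyp4a31 measured 10.1, 6.60 and 18.6 CPM against 3.61, 5.09 and 6.13 CPM (1.25 ± 0.46, adjusted p = 0.303). The share of 50-base words found in no other gene was 70.2% for Cyp4a10, 79.4% for Cyp4a31, 56.2% for Cyp4a32 and 99.8% for Cyp4a14. Reads may therefore be shared among some of these genes, and the part of such reads was not tested. With few genes tested in each family (4 in Cyp4a, 4 in Hsd3b and 6 in Elovl, counting Elovl3), these counts say little about the families as wholes.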

How the data were processed

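The authors deposited 1 table of raw read counts per gene symbol for 12 libraries, with no normalization. Tools listed in the submitters' processing notes are STAR (2.5.4b and 2.6.0c), bcl2fastq 2.20, DESeq2 1.20.0 and R 3.5.1, with the build mm10. The counting tool, strand setting, annotation and treatment of multiply mapped reads were not given in the sources used here, so reads of antisense or overlapping genes and of near-identical copies may be misassigned. Per the labels' protocols, libraries were made from poly-A RNA with the NEBNext Ultra II kit. No label says how animals were housed or paired, so p-values measure the spread between these libraries.

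Groups came from the sample titles, and each library maps to 1 column. Genes were kept by filterByExpr (minimum count 10, minimum total 15), which left 13968 of 22537. The kept genes held 99.98% of reads. The 4 contrasts were tested with edgeR 4.0.16 (TMM, quasi-likelihood, 4 group means, Benjamini-Hochberg over all genes, adjusted p under 0.05), in R 4.3.3. SE is the log2 change divided by the square root of F. The script was tested on simulated data. Levels are CPM on TMM library sizes, and shares have 95% Wilson intervals (counting error only). No libraries were duplicates: the chi-square per degree of freedom within groups was at least 17.5. Uniqueness is the share of 50-base words, on both strands, in no other GENCODE M21 gene. Promoters were RefSeq's (GRCm38.p6), aligned with Biopython 1.88.

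The 7 members, every Mup gene, the genes called in each list or else the 2 with the smallest p, and the 3 genes most like each tested member were to be named; any other gene was picked after its values were known. One gene of the lists is not reported here. Members and lists were chosen with earlier results of these data known. Alternatives were DESeq2 1.42.0, its size factors, no filter, TMM scaling that left out the 50 most abundant genes, only the groups of the contrast, a replicate block and leaving out each library. Lists without ARNT KO replicate 3 were added after seeing the data. Residuals of same-numbered libraries correlated at 0.327, 0.153 and 0.101 between the Flox groups. The main fit was not paired, and the replicate block is given there as an alternative.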

Additional observations from a re-analysis of the deposited data

Results flagged for a closer look

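The difference between the ARNT and the AHR effect on Mup3 was 1.68 on the log2 scale (SE 0.15, edgeR adjusted p = 0.00106) without ARNT KO replicate 3, which was picked out because the 2 effects ran in opposite directions and their difference passed its own test. With all 12 libraries the difference was 1.21 (SE 0.64, adjusted p = 0.614), and over all alternatives its adjusted p ran from 0.00106 to 0.854. Without replicate 3, Mup3 averaged 1326 CPM in ARNT KO and 1085 CPM in AHR KO. It averaged 799 CPM in ARNT Flox and 2083 CPM in AHR Flox. The control groups thus lay further apart than the knockout groups, and their part in the difference was not tested.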

How the results depend on the processing

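Leaving out each library in turn gave 5 to 136 called genes in AHR KO (11 with all 12), 1 to 193 in ARNT KO (8), 1 to 194 for the difference between the effects (6) and 12 to 1532 between the control lines (46), and 0 to 1, 0 to 1, 0 to 1 and 0 to 2 called members (0 with all 12). The highest of each came without ARNT KO replicate 3. DESeq2 called 359, 56, 148 and 572 genes, and 1 member between the control lines. Without a filter, 28 genes were called in AHR KO. Fits on only the groups of the contrast called 16, 1 and 1615 genes, and 1 member (Mup3) each in AHR KO and between the control lines. With the replicate block, 3 genes were called in ARNT KO and 23 between the control lines, and the pairing changed no call of a member. The change of Elovl3 in AHR KO reversed to -0.37 without AHR Flox replicate 1, -0.13 without AHR Flox replicate 2 and -0.18 without AHR KO replicate 3, in a range up to 1.08. That of Mup3 in ARNT KO reversed to -0.014 and -0.052 without ARNT KO replicates 1 and 2, in a range up to 0.73. All other fitted changes of the 4 tested members kept their direction in every alternative run. Where calls changed, the cause was not tested beyond the libraries removed. Depth limits Hsd3b5, Cyp4a12a and Cyp4a12b, which had 27, 18 and 2 counts in all.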
